A study of Mus musculus with 6 samples.

Results

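The genes described here are the ion-coupled solute carriers for inorganic ions: the SLC4, SLC8, SLC9, SLC12, SLC20, SLC24, SLC26, SLC30, SLC39 and SLC41 families. They were taken by gene symbol alone, which gave 78 of the 23955 genes in the files. Of these, 75 are carriers and 3 are named after one: Slc9a3r1 and Slc9a3r2, scaffold proteins that bind the exchanger SLC9A3, and Slc4a1ap, an adaptor protein.

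Ribosome-bound mRNA of astrocytes was sequenced from 2 regions, diencephalon and cortical grey matter, of mice aged 3 months, with 3 libraries per region and the material of 3 mice in each library. Both regions came from C57BL/6 mice labelled Slc1a3 +/- GFP+ Rpl22HA fl/fl. These mice carried a tamoxifen-inducible Cre recombinase in the locus of the glutamate transporter Slc1a3 (Slc1a3tm1(cre/ERT2)Mgoe), a floxed Rpl22 allele that yields a haemagglutinin-tagged ribosomal protein after recombination (Rpl22 tm1.1Psam) and an EGFP transgene (Tg(CAG-cat,-EGFP)1Rbns). All received oral tamoxifen at 9 weeks of age, and males and females were used. The diencephalon was taken without the area bordering the third ventricle, and the cortex without meninges and white matter. The only contrast is therefore between regions, within one genotype and treatment, and the Slc1a3 locus, itself an astrocyte gene, carries the recombinase on one chromosome in both groups. The labels call the libraries of a region replicates without saying more about their origin, so the p-values measure the spread between these pools.

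Solute carriers of these families move ions against or along their gradients by coupling them to sodium, potassium, protons or other anions. In astrocytes, sodium-bicarbonate cotransport and sodium-proton exchange set intracellular and extracellular pH around active synapses, sodium-calcium exchangers clear calcium, and cation-chloride cotransporters set chloride and cell volume. The SLC30 proteins move zinc or manganese out of the cytosol and the SLC39 proteins move zinc and other metals into it, while SLC20 and SLC41 carry phosphate and magnesium.

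The libraries held 1733140 to 2334240 expected counts, the read numbers per gene as estimated by RSEM. Levels are given in CPM, counts scaled to library size, to compare a gene between libraries, and in TPM, which also allow for gene length, to compare genes. Cortical replicate 3 was unlike cortical replicates 1 and 2 (chi-square divided by its degrees of freedom, 7.39 and 6.31), which were closer to each other (2.70). All 15 listed astrocyte markers passed the count filter, and their summed level was 23569 to 27374 CPM in the diencephalic and 33531 to 40996 CPM in the cortical libraries. Of the 15, 7 were lower in diencephalon and 8 did not pass, with a median log2 difference of -0.16. The sum follows its abundant genes, among them Slc1a2 at 8960 ± 758 against 16212 ± 1933 CPM and Glul at 2727 ± 221 against 6121 ± 487 CPM. Markers of other cells were also present. General neuronal markers summed to 2507 to 2621 CPM in diencephalon and 3217 to 4337 CPM in cortex, with the highest value in cortical replicate 3. Of these 10 genes, 3 were higher in diencephalon, 2 were lower and 5 did not pass. Snap25, the most abundant, was at 658 ± 60.1 against 1543 ± 298 CPM. Cortical excitatory neuron markers, among which Emx1 had no count, were 5.88-fold lower in diencephalon and meningeal and fibroblast markers 5.89-fold lower. Endothelial and pericyte markers were 2.65-fold lower as a sum, with 2 of 4 tested genes lower. Microglia markers were 1.74-fold lower, with overlapping sums and the highest, 1246 CPM, in cortical replicate 3. Of 9 tested microglia genes, 2 were lower and 7 did not pass. Oligodendrocyte progenitor markers were 1.34-fold lower as a sum, with 3 of 8 tested genes lower. Subcortical neuron markers were 3.74-fold, choroid plexus markers 2.37-fold and oligodendrocyte markers 2.24-fold higher as sums. Of the tested genes in these lists, 7 of 8, 4 of 6 and 8 of 9 were higher. In bulk libraries of this kind, fewer cells of a type and less RNA per cell cannot be told apart.

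Of the 78 members, 52 passed the count filter and were tested, and 22 of these differed between regions (adjusted p under 0.05 in edgeR's quasi-likelihood test, by Benjamini-Hochberg over 10568 genes). Of the 22, 14 were higher and 8 lower in diencephalon. Among all tested genes 29.6% were called, 14.9% as higher and 14.8% as lower, against 42.3% of the tested members. The median log2 difference, diencephalon minus cortical grey matter, was 0.23 over the tested members and 0.01 over all tested genes. Leaving out the 3 genes that are not carriers gave 20 calls among 49. Without cortical replicate 3, 24 members were called, 16 as higher and 8 as lower. The split between directions varied with the scale: 9 members were higher and 9 lower once a trend of the regional difference on gene length was removed, and 17 were higher and 4 lower as log2(TPM + 1), with a median over all genes of 0.22. Over all genes the split was 1355 higher and 1583 lower without the length trend and 2118 higher and 958 lower on that TPM scale.

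The values of the 2 regions did not overlap for 29 of the 52 tested members, or 55.8%, against 42.6% of all tested genes. These include all 22 called members and 7 that did not pass, among them Slc26a2, Slc9a7, Slc24a4, Slc39a9, Slc39a3 and Slc20a1. In 10 of the called members the difference was at least 2-fold, 6 of them higher and 4 lower. No such count is given here for all tested genes, so these numbers have no background share beside them. A total of 11 calls held in every one of the 15 alternative analyses in which the gene was tested, among them Slc4a4, Slc4a7, Slc9a3r2, Slc8a3, Slc8a2, Slc24a3, Slc30a2, Slc30a3, Slc39a10 and Slc41a2.

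**Figure D1:**
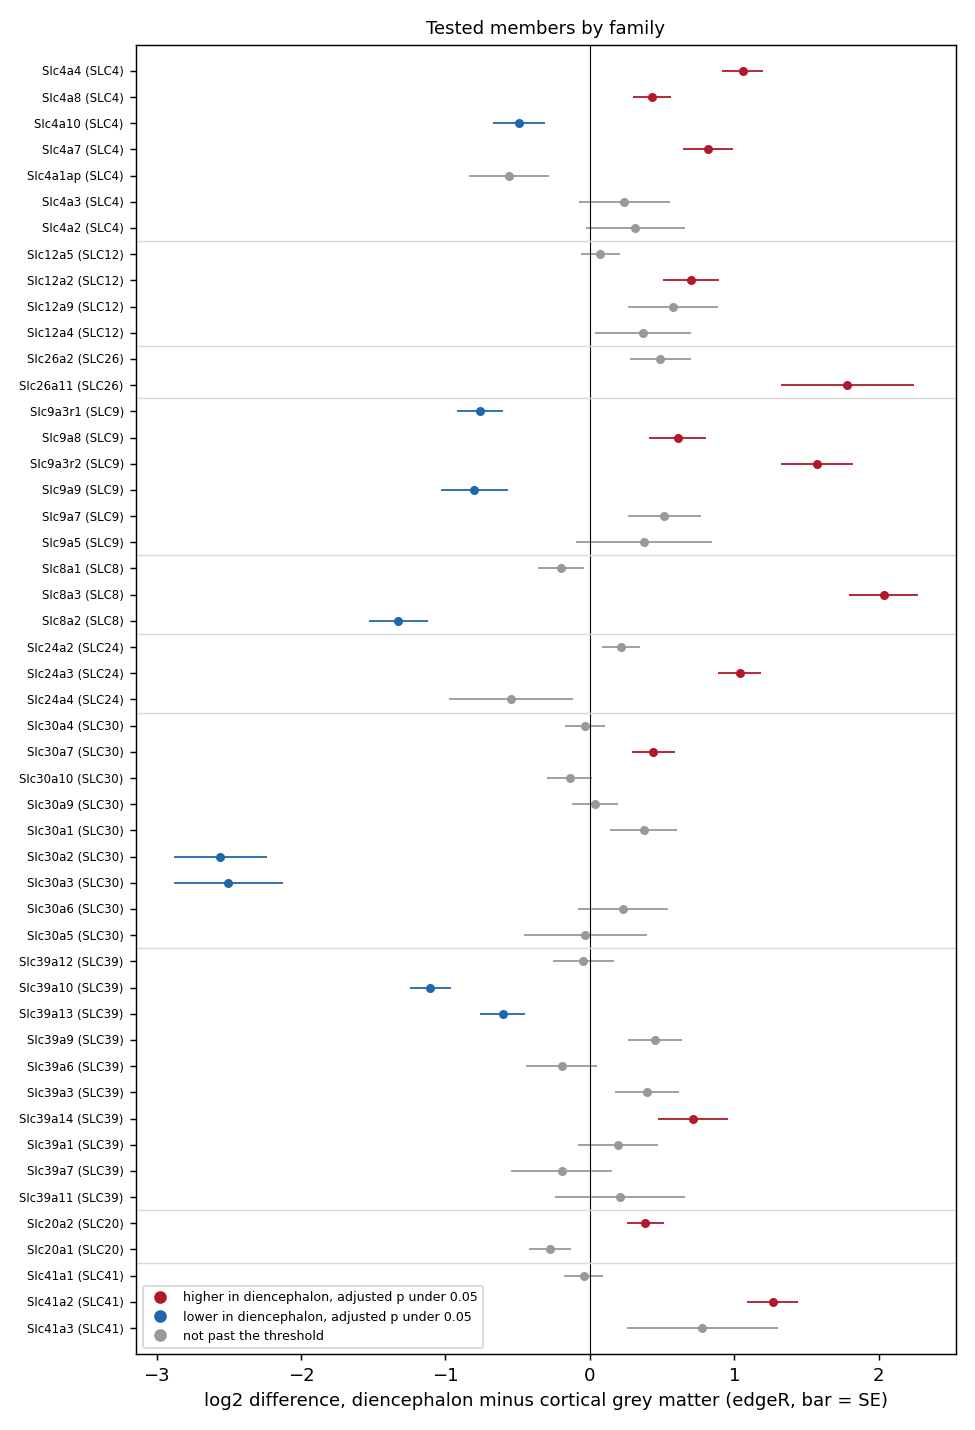
Log2 difference (diencephalon minus cortical grey matter) and its standard error for 49 of the 52 tested members, grouped by family; red and blue points passed the threshold and grey points did not. The largest differences were 2.03 for Slc8a3 in one direction and -2.56 for Slc30a2 in the other.

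The bicarbonate family was higher in diencephalon as a sum, through its most abundant member. Summed over the 10 SLC4 members, the level was 932 to 1031 TPM in the diencephalic and 469 to 575 TPM in the cortical libraries. Of 7 tested members, 3 were higher (Slc4a4, Slc4a7 and Slc4a8), 1 was lower (Slc4a10) and 3 did not pass. Slc4a4, the electrogenic sodium-bicarbonate cotransporter NBCe1 of astrocytes, took 81.9% of the family's CPM in diencephalon and 70.5% in cortex. Without it the family's summed CPM were 1.10-fold higher in diencephalon.

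Slc4a4 was at 1692, 1443 and 1652 CPM in diencephalon replicates 1 to 3 and at 908, 743 and 649 CPM in cortical replicates 1 to 3. Every diencephalic library lay above every cortical one, and the difference was 2.08-fold (log2 difference 1.06 ± 0.14 SE, edgeR adjusted p = 6.32e-06). Slc4a7, the electroneutral sodium-bicarbonate cotransporter NBCn1, was at 61.8, 80.1 and 77.3 CPM against 42.8, 43.7 and 37.3 CPM, or 1.76-fold higher (edgeR adjusted p = 0.00103). Slc4a8, a sodium-driven chloride-bicarbonate exchanger, was at 140.4, 162 and 156 against 104, 114 and 122 CPM, a smaller difference of 1.35-fold (edgeR adjusted p = 0.0165). Leaving out diencephalon replicate 2 or 3 ended that call (adjusted p = 0.0862 and 0.0603), as did leaving out cortical replicate 1 or 2 (0.0900 and 0.0510) or removing the length trend (0.148), over a range of 0.00625 to 0.148 among the alternatives.

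Slc4a10, a sodium-dependent chloride-bicarbonate exchanger known from neurons and choroid plexus, went the other way. Its values were 96.4, 85.4 and 81.5 CPM in diencephalon and 103, 100.1 and 170.2 CPM in cortex (log2 difference -0.49 ± 0.18, edgeR adjusted p = 0.0455). The regions did not overlap, but cortical replicate 3 was far above the other cortical libraries, and without it the log2 difference was -0.21 (adjusted p = 0.302). The call was also lost without diencephalon replicate 1, 2 or 3 (0.0541, 0.117 and 0.167), with DESeq2 (0.0665), with limma voom (0.0716) and on the TPM scale (0.425 and 0.431), over a range of 0.00780 to 0.431. Within a library, the TPM of Slc4a4 was 12.3 to 14.8 times that of Slc4a10 in diencephalon and 2.77 to 6.43 times in cortex. The neuronal and microglia marker sums were highest in the same cortical library, and their part in the value of Slc4a10 was not tested.

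The anion exchangers Slc4a2 and Slc4a3 were weakly expressed, at 11.1 ± 3.09 and 10.1 ± 1.78 TPM in diencephalon and 7.73 ± 1.95 and 7.41 ± 0.448 TPM in cortex (SD, n = 3 each), and their libraries overlapped. Slc4a1ap had a log2 difference of -0.56 (adjusted p = 0.134), and passed only without cortical replicate 3 (0.0433, range 0.0433 to 0.577). Slc4a11 had 11 counts in all 6 libraries, Slc4a9 had 1 and Slc4a1, the anion exchanger of red cells, had none. A count of 0 allows a level of up to 1.31 to 1.86 CPM, depending on the library, which is what 3 counts are worth.

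Genes for carbonic anhydrases and related partners of bicarbonate transport were lower in part. Of 10 tested among 19 listed, 6 were lower and 4 did not pass, with a median log2 difference of -1.03. Car2, the main cytosolic carbonic anhydrase of glia, was at 166 ± 1.95 CPM in diencephalon and 343 ± 54.8 CPM in cortex (SD, n = 3 each; edgeR adjusted p = 2.44e-06). Car7, a cytosolic enzyme of neurons, was 5.73-fold lower, Car8, a related protein without enzyme activity, 3.36-fold lower and mitochondrial Car5b 2.52-fold lower. The remaining lower genes, Car4 and Car11, were 3.48-fold and 1.54-fold lower. The call for Car11 was lost on the TPM scale (edgeR adjusted p = 0.0126, limma 0.0907 and 0.0948), with the length trend removed (0.0841) and without diencephalon replicate 3 (0.0751), over a range of 0.00538 to 0.0948. Slc4a4 and these enzyme genes therefore differed in opposite directions. In diencephalon the astrocyte marker sum was at 0.665 of its cortical level, though 8 of its 15 genes did not pass. The sum of markers of oligodendrocytes, which also contain Car2, was 2.24-fold higher. The part of these marker differences in that of Car2 was not tested.

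**Figure D2:**
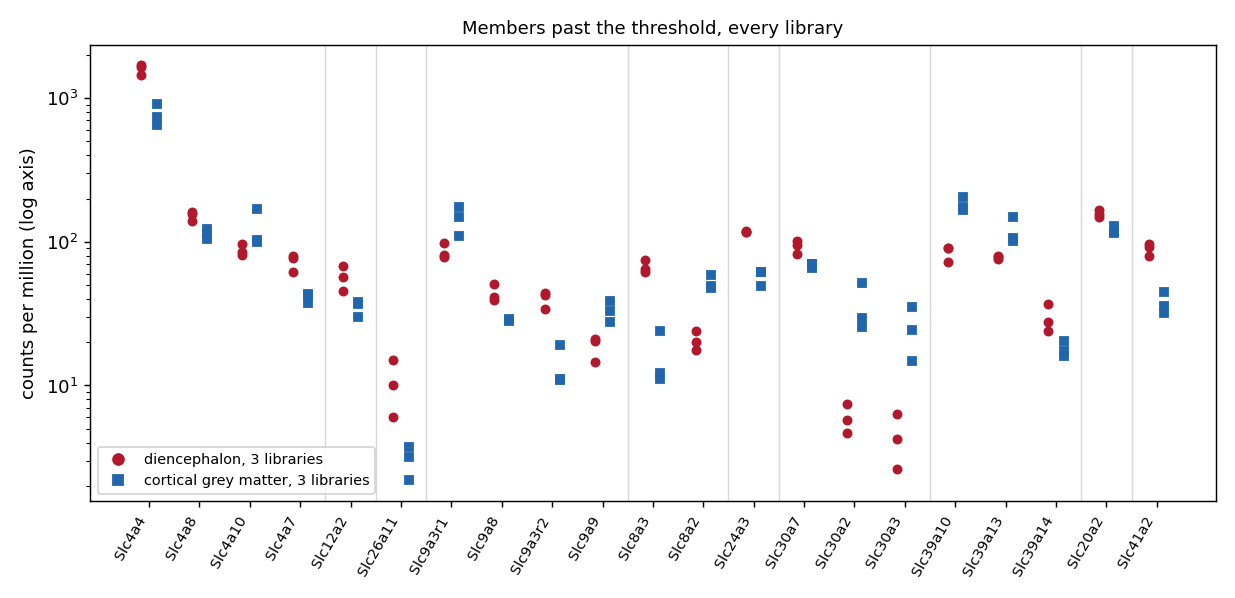
CPM on a log axis in each library for 21 of the 22 members past the threshold, in family order, with 3 circles for diencephalon and 3 squares for cortical grey matter per gene. Circles and squares do not overlap for any of the 21 genes. On the log axis the range within a region is widest for Slc26a11 and Slc30a3, which are weakly expressed.

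Among the cation-chloride cotransporters, Slc12a2 differed between the regions. Of 9 SLC12 members 5 were tested, 1 was higher in diencephalon and 4 did not pass. Slc12a2 encodes NKCC1, which takes up sodium, potassium and chloride together. It was at 57.1, 45.3 and 67.4 CPM in diencephalon and 30.1, 38.3 and 36.6 CPM in cortex, 1.62-fold higher (log2 difference 0.70 ± 0.20, edgeR adjusted p = 0.00940). The lowest diencephalic library lay above the highest cortical one. The call was lost without diencephalon replicate 3 (adjusted p = 0.0753) or cortical replicate 1 (0.0626), over a range of 0.00377 to 0.0753. Oligodendrocyte and choroid plexus markers, which mark other cells known to contain Slc12a2, were also higher in diencephalon. The sums of oligodendrocyte progenitor markers and of endothelial and pericyte markers were 1.34-fold and 2.65-fold lower. The part of other cells in the difference of Slc12a2 was not tested.

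Slc12a5, which encodes the neuronal potassium-chloride exporter KCC2, was the most abundant member of the family, at 175 ± 19.1 TPM in diencephalon and 145 ± 26.6 TPM in cortex (SD, n = 3 each). Its CPM were 249.8, 295 and 297 against 247, 235 and 320.5. The libraries overlapped, and the log2 difference was 0.07 ± 0.14 (adjusted p = 0.734). Neuronal markers were present in the same libraries, as given above. Slc12a9 and Slc12a4 were at 31.5 ± 5.12 and 15.4 ± 5.14 TPM in diencephalon and 17.7 ± 10.2 and 10.3 ± 3.56 TPM in cortex. Slc12a9 passed only without cortical replicate 1, at an adjusted p of 0.0153 against 0.177 with all libraries (range 0.0153 to 0.490). Slc12a7, Slc12a8 and Slc12a1 had 37, 28 and 3 counts in all and were not tested, and Slc12a3 had none.

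The tested genes for the kinases that control these cotransporters by phosphorylation, and for their partners, showed few differences. Of 9 tested genes of the WNK, SPAK and OSR1 pathway, 1 was lower and 8 did not pass, with a median log2 difference of 0.05. Wnk1, the most abundant, was at 1198 ± 33.7 against 1160 ± 39.9 CPM (adjusted p = 0.812). The kinase gene Wnk4 was too weakly counted to test, with 5 counts in diencephalon and 43 in cortex. Its libraries did not overlap (0.839 ± 0.795 against 7.69 ± 2.16 CPM). The lower gene was Cab39, a cofactor of SPAK and OSR1, at 40.9 ± 4.40 against 63.8 ± 5.39 CPM (edgeR adjusted p = 0.00758), a call lost on the TPM scale (0.0808 and 0.0794, range 0.00286 to 0.0808).

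Both the SLC26 anion exchangers and the chloride channels held genes that were higher in diencephalon. Of 11 SLC26 members only 2 were tested. Slc26a11, a sulphate and anion carrier, was at 6.08, 10.02 and 15.2 CPM in diencephalon and 2.18, 3.19 and 3.73 CPM in cortex, 3.44-fold higher (log2 difference 1.78 ± 0.46, edgeR adjusted p = 0.00508). Its diencephalic libraries differed among themselves by more than those of most members, and without diencephalon replicate 3 the adjusted p was 0.0660 (range 0.00152 to 0.0660). The sulphate carrier Slc26a2, the most abundant of the family, was at 44.4, 42.2 and 36.6 against 31.8, 33.5 and 21.7 CPM (log2 difference 0.49 ± 0.21, adjusted p = 0.0831). These libraries did not overlap, and Slc26a2 passed on the TPM scale (0.0415 and 0.0440, range 0.0415 to 0.264). The other 9 SLC26 genes had between 1 and 42 counts over the 6 libraries.

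Of 14 tested genes for chloride channels and their partners, 5 were higher, 1 was lower and 8 did not pass. Among all tested genes, 14.9% were called as higher and 14.8% as lower. The endosomal chloride-proton exchanger gene Clcn5 was 4.54-fold higher in diencephalon (102 ± 11.7 against 22.2 ± 4.04 CPM, edgeR adjusted p = 1.04e-08). Ano1, a calcium-activated chloride channel gene, was at 14.5 ± 4.28 against 0.821 ± 0.425 CPM. Lrrc8a, the obligatory subunit of the volume-regulated anion channel, was 1.54-fold higher and Clcn3 1.45-fold higher. Clcn7 was 2.11-fold higher and Lrrc8b, another subunit of that channel, 1.40-fold lower (edgeR adjusted p = 0.0326 and 0.0440, named after their values were seen). For Clcn7 7 of 14 alternatives ended the call, among them leaving out diencephalon replicate 3 (0.220) or cortical replicate 1 or 2 (0.102 and 0.123), over a range of 0.0128 to 0.220. For Lrrc8b 9 of 15 did, among them leaving out diencephalon replicate 1, 2 or 3 (0.0919, 0.0504 and 0.186) or cortical replicate 1 or 3 (0.0822 and 0.150), over a range of 0.00275 to 0.439. Hepacam and Mlc1, which form an astrocyte complex linked to the chloride channel Clcn2, did not pass (adjusted p = 0.0565 and 0.805).

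The sodium-proton exchanger family held calls in both directions. Of 11 SLC9 members 8 were tested, of which 3 were higher, 2 were lower and 3 did not pass. The higher ones include Slc9a8 and the scaffold gene Slc9a3r2, and the lower ones are Slc9a9 and the scaffold gene Slc9a3r1. The summed TPM were 481 to 523 in diencephalon and 395 to 498 in cortex, which overlap.

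Slc9a8, the Golgi and endosomal exchanger NHE8, was at 41.2, 51.1 and 39.2 CPM in diencephalon and 29.2, 28.2 and 28.6 CPM in cortex, 1.53-fold higher with no overlap (edgeR adjusted p = 0.0230). Its call was lost without diencephalon replicate 2 (0.135), without cortical replicate 1 or 2 (0.0606 and 0.0691), with DESeq2 (0.0582) and with the length trend removed (0.0564), over a range of 0.0174 to 0.135. Slc9a9, the endosomal exchanger NHE9, was lower, at 21.1, 20.6 and 14.6 against 27.5, 33.0 and 38.5 CPM (log2 difference -0.80 ± 0.23, edgeR adjusted p = 0.0126). This call was lost without diencephalon replicate 3 (0.0802) and on the TPM scale (0.0924 and 0.0943), over a range of 0.00683 to 0.0943.

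Slc9a7, an exchanger of intracellular membranes, had a log2 difference of 0.52 and did not pass (adjusted p = 0.131). It passed without cortical replicate 2 (0.0446) and with log2(TPM + 1) (0.0483, range 0.0446 to 0.481). Slc9a5 was at 5.01 ± 2.37 TPM in diencephalon and 3.45 ± 1.75 TPM in cortex and did not pass (adjusted p = 0.590). Slc9a2 and Slc9a3 had 30 and 9 counts in all. Slc9a4 had no count in diencephalon and 10 in cortex, with an upper limit of 0.434 for the ratio of diencephalon to cortex (95% exact interval, counting error only). It was not tested, and passed in the analysis without a count filter (edgeR adjusted p = 0.0265).

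The paired scaffold genes differed in opposite directions. Slc9a3r1, which encodes NHERF1, a PDZ protein that links membrane proteins to the actin cytoskeleton through ezrin, was at 80.5, 97.6 and 78.4 CPM in diencephalon and 175, 148 and 109.9 CPM in cortex (log2 difference -0.76 ± 0.16, edgeR adjusted p = 0.000934). Slc9a3r2, which encodes its relative NHERF2, was at 42.6, 34.3 and 43.9 against 10.9, 11.2 and 19.3 CPM, 2.98-fold higher (edgeR adjusted p = 4.39e-05). Neither gene had overlapping libraries. Within a library, the TPM of Slc9a3r1 was 1.55 to 2.50 times that of Slc9a3r2 in diencephalon and 4.94 to 13.9 times in cortex. The call for Slc9a3r1 was lost on the TPM scale (0.0618 and 0.0669, range 2.25e-06 to 0.0669), with a log2 difference of -0.53. Ezr, the gene for ezrin, was lower in the same direction as Slc9a3r1, at 48.2 ± 2.82 against 183 ± 7.21 CPM (edgeR adjusted p = 8.14e-10).

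Of the 5 tested genes for SLC9 cofactors and other acid transporters, Ezr was lower, Slc16a1 was higher and 3 did not pass. Slc16a1, the monocarboxylate transporter MCT1 of oligodendrocytes, endothelium and astrocytes, was at 23.9 ± 3.35 against 13.8 ± 1.77 CPM (edgeR adjusted p = 0.0241). This call was lost with DESeq2 (0.0668), without diencephalon replicate 1 or 3 (0.107 and 0.0526) or cortical replicate 3 (0.0554), over a range of 0.0186 to 0.107. Chp1, a calcineurin-like cofactor of sodium-proton exchangers, had a log2 difference of -0.33 (adjusted p = 0.0983) and did not pass.

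Among the calcium exchangers, Slc8a3 and Slc8a2 changed places between the regions. Of 3 sodium-calcium exchangers, Slc8a3 was higher in diencephalon, Slc8a2 was lower and Slc8a1 did not pass. Of 3 tested potassium-dependent exchangers, Slc24a3 was higher, and Slc24a2 and Slc24a4 did not pass.

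Slc8a3, which encodes the sodium-calcium exchanger NCX3, was at 61.8, 64.3 and 74.7 CPM in diencephalon and at 24.0, 12.2 and 11.2 CPM in cortex. It was 4.09-fold higher, the largest difference upwards among the tested members (log2 difference 2.03 ± 0.24, edgeR adjusted p = 1.08e-06). Cortical replicate 1 was above the other cortical libraries and still far below the diencephalic ones. Slc8a2, which encodes NCX2, was at 17.8, 20.0 and 24.0 against 47.6, 49.0 and 59.0 CPM, 2.51-fold lower (log2 difference -1.33 ± 0.21, edgeR adjusted p = 3.56e-05). The ratio of the TPM of Slc8a3 to that of Slc8a2, which no scaling of libraries alters, was 2.96, 2.73 and 2.65 in the diencephalic libraries and 0.430, 0.213 and 0.161 in the cortical ones. The more abundant of the pair was thus Slc8a3 in each diencephalic library and Slc8a2 in each cortical one. Markers of neurons and oligodendrocytes were also present in these libraries, with sums that differed between the regions as given above. Their part in the differences of Slc8a3 and Slc8a2 was not tested.

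Slc8a1, which encodes NCX1, was the most abundant of the 3 and held 83.5% of the family's CPM in diencephalon and 88.3% in cortex. Its values were 404, 504 and 421 CPM against 425, 434 and 670.2 CPM, overlapping, with a log2 difference of -0.20 ± 0.16 (adjusted p = 0.375). Cortical replicate 3 was again the highest library. With the length trend removed, Slc8a1, whose transcripts average 18484 bases in the files, passed as lower at -0.46 (edgeR adjusted p = 0.0353). Its adjusted p ran from 0.0353 to 0.921 among the alternatives, and without cortical replicate 3 its log2 difference was 0.04.

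Slc24a3, which encodes the exchanger NCKX3, was at 118, 117 and 119 CPM in diencephalon and 61.5, 61.2 and 49.1 CPM in cortex. The diencephalic libraries were nearly equal, and the difference was 2.05-fold (log2 difference 1.04 ± 0.15, edgeR adjusted p = 1.25e-05). Slc24a2, which encodes NCKX2, known from neurons, was at 714, 709 and 692 against 539.7, 568 and 719 CPM. Cortical replicate 3 lay above every diencephalic library and the other cortical libraries lay below them (log2 difference 0.21 ± 0.13, adjusted p = 0.239). Without that library Slc24a2 was called higher in diencephalon, at 0.34 (edgeR adjusted p = 0.0179, range 0.0179 to 0.757). Slc4a10, Slc8a1 and Slc24a2 all had their highest cortical value in replicate 3. That library had the highest neuronal marker sum and the lowest astrocyte marker sum of the cortical libraries. Its microglia marker sum was also the highest, at 1246 CPM against 525 and 801 CPM in cortical replicates 1 and 2. How far transcripts of other cells account for the values of these genes was not tested.

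Slc24a4 was at 8.61 ± 1.39 TPM in diencephalon and 11.2 ± 3.78 TPM in cortex and did not pass (adjusted p = 0.365). Slc24a5 had 14 counts, partly shared with other genes by RSEM in 5 libraries. Slc24a1 had 4 counts in diencephalon and none in cortex and was not tested. The lower limit of its ratio, diencephalon over cortex, was 0.642 (95% exact interval, counting error only), so a difference was not detectable at this depth. Of 7 tested genes for mitochondrial calcium uptake, 1 was lower and 6 did not pass, with a median log2 difference of -0.42. The lower gene was Letm1, a mitochondrial cation exchanger gene, at 52.7 ± 7.77 against 74.7 ± 6.75 CPM (edgeR adjusted p = 0.0263). Its call was lost on the TPM scale (0.218 in both settings), without diencephalon replicate 1 or 3 (0.106 and 0.0819) or cortical replicate 1 or 2 (0.0760 and 0.0892), over a range of 0.00975 to 0.218.

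**Figure D3:**
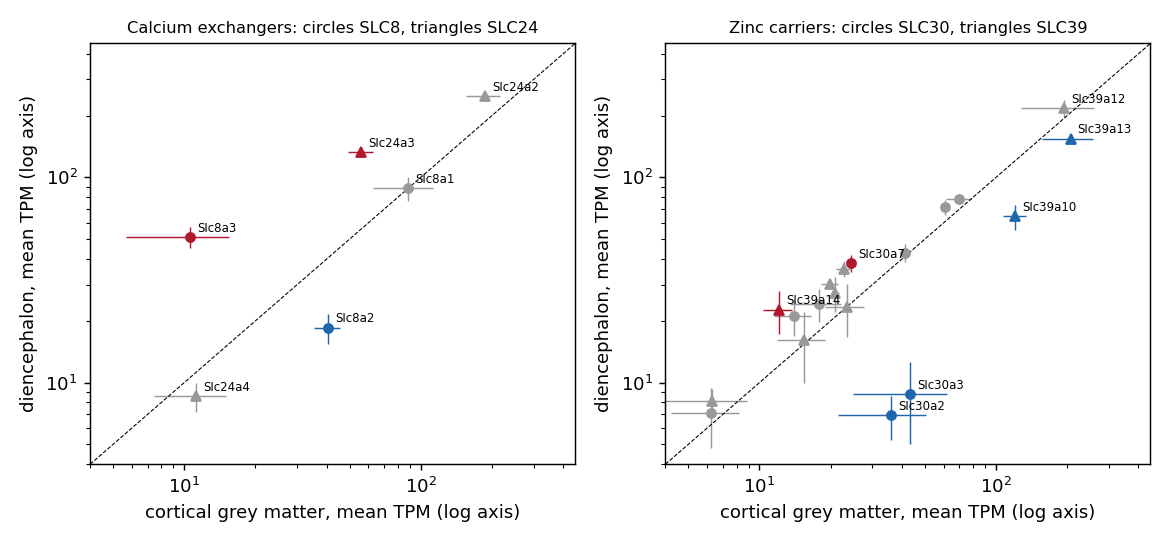
Mean TPM in diencephalon against cortical grey matter on log axes, with SD over 3 libraries, for the tested calcium exchangers (left) and zinc carriers (right); the dashed line marks equal levels and red and blue mark members past the threshold. Slc8a3 lies above the line and Slc8a2 below it, while most zinc carriers lie along the line and Slc30a2, Slc30a3 and Slc39a10 lie below it.

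The zinc carriers were the most numerous, with 24 genes, of which 19 were tested. Among 9 tested exporters, Slc30a2 and Slc30a3 were lower in diencephalon, Slc30a7 was higher and 6 did not pass. Among 10 tested importers, Slc39a10 and Slc39a13 were lower, Slc39a14 was higher and 7 did not pass. The share of tested zinc carriers called, 31.6%, was near the 29.6% of all genes. The median log2 difference was -0.03.

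Slc30a2, which encodes the vesicular zinc transporter ZnT2, was at 4.68, 7.38 and 5.75 CPM in diencephalon and 25.7, 29.3 and 51.6 CPM in cortex. The lowest cortical library was above every diencephalic one, and the gene was 5.89-fold lower (log2 difference -2.56 ± 0.32, edgeR adjusted p = 2.60e-06). Slc30a3, which encodes ZnT3 and loads zinc into synaptic vesicles of forebrain excitatory neurons, was at 4.21, 6.33 and 2.61 against 35.3, 14.9 and 24.2 CPM, 5.66-fold lower (log2 difference -2.50 ± 0.38, edgeR adjusted p = 2.66e-05). The sum of 10 cortical excitatory neuron markers was 5.88-fold lower in the same libraries, from 4958 to 5843 CPM in cortex to 689 to 1069 CPM in diencephalon, and 9 of 9 tested were lower. Its part in the difference of Slc30a3 was not tested.

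Slc39a10, which encodes the importer ZIP10 of the plasma membrane, was at 72.5, 90.7 and 90.4 CPM in diencephalon and 166, 176 and 204 CPM in cortex. It was 2.15-fold lower without overlap (log2 difference -1.11 ± 0.14, edgeR adjusted p = 2.95e-06). Slc39a13, which encodes ZIP13 of the early secretory pathway, was at 75.8, 78.6 and 79.4 against 101, 107 and 149.7 CPM (log2 difference -0.60 ± 0.16, edgeR adjusted p = 0.00540). The TPM scale ended that call (0.122 and 0.127, range 0.000797 to 0.127). Within a library, the TPM of Slc39a12, which encodes the brain importer ZIP12, was 2.78 to 4.17 times that of Slc39a10 in diencephalon and 0.885 to 2.18 times in cortex.

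The zinc genes higher in diencephalon differed by less. Slc39a14, which encodes ZIP14, a carrier of zinc, manganese and iron, was at 23.9, 36.9 and 27.7 against 17.5, 16.0 and 20.5 CPM (edgeR adjusted p = 0.0299). Its call was lost without diencephalon replicate 2 or 3 (0.190 and 0.0592), without cortical replicate 1 or 2 (0.0844 and 0.108), with DESeq2 (0.0736) and with the length trend removed (0.0608), over a range of 0.0189 to 0.190. Slc30a7, a zinc carrier of the Golgi, was at 101, 82.3 and 94.6 against 65.4, 70.3 and 69.6 CPM (edgeR adjusted p = 0.0301). Its call was lost without diencephalon replicate 1 or 3 (0.114 and 0.0853), without cortical replicate 1 or 2 (0.102 and 0.0669), with DESeq2 (0.0707) and with the length trend removed (0.129), over a range of 0.0220 to 0.129. Both differences therefore rest on small margins between the libraries.

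Slc39a12 and Slc30a4, the most abundant importer and exporter by mean CPM over the 6 libraries, did not pass. Slc39a12 was at 158, 157 and 131 CPM in diencephalon and 164, 200.2 and 94.4 CPM in cortex, where the libraries varied more than between the regions (adjusted p = 0.897). Slc30a4 was at 117, 108 and 118 against 101, 121 and 129 CPM (log2 difference -0.03 ± 0.14, adjusted p = 0.884). The manganese exporter gene Slc30a10 and the mitochondrial zinc exporter gene Slc30a9 had log2 differences of -0.14 ± 0.16 and 0.04 ± 0.16. Slc30a1, the main zinc exporter of the plasma membrane, was at 21.1 ± 4.11 against 14.0 ± 2.47 TPM (adjusted p = 0.242). Slc39a9 had libraries that did not overlap and passed on the TPM scale alone (0.0380 and 0.0381, range 0.0380 to 0.224). Slc30a6, Slc30a5, Slc39a6, Slc39a3, Slc39a1, Slc39a7 and Slc39a11 had log2 differences between -0.20 and 0.40 and did not pass. Slc39a8, Slc39a2 and Slc39a4 had 44, 8 and 3 counts in all, while Slc30a8 and Slc39a5 had none.

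Among the partners of zinc handling, Mt1 and Mt2, which encode zinc-binding metallothioneins, were lower in diencephalon. Mt1 was at 78.7 ± 11.3 against 159 ± 39.4 CPM (edgeR adjusted p = 0.000104) and Mt2 at 229 ± 32.2 against 352 ± 96.1 CPM (0.0123). The libraries of Mt2 overlapped, and its call was lost with the length trend removed (0.783), on the TPM scale (0.221 and 0.228), without diencephalon replicate 2 or 3 (0.0551 and 0.0670) or cortical replicate 2 (0.0608), over a range of 1.07e-06 to 0.783. The brain metallothionein gene Mt3 had 11 counts in diencephalon and 21 in cortex and was not tested. Tmem163, a vesicular zinc exporter gene, was 3.95-fold higher in diencephalon. Mtf1, the zinc-sensing transcription factor that binds metal response elements at metallothionein genes, had a log2 difference of 0.35 ± 0.14 and did not pass (adjusted p = 0.0579).

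Promoters of 4 zinc genes are shown as examples with and without a match to the core of the metal response element. Mt1 and Slc30a1 are among the known targets of Mtf1. Mt1 was lower in diencephalon and Slc30a1 did not pass. The others are the lower genes Slc30a3 and Slc39a10, shown without a statement on whether Mtf1 acts on them. The core of the metal response element was searched as TGCACNC and TGCGCNC on both strands, with overlapping matches kept, in the 250 bases before each RefSeq start site (build GRCm38.p6, not the build of the counts). Capitals mark the matches, and every sequence runs 5′ to 3′ on the gene's strand.
Mt1, chr8:94178839-94179088, plus strand: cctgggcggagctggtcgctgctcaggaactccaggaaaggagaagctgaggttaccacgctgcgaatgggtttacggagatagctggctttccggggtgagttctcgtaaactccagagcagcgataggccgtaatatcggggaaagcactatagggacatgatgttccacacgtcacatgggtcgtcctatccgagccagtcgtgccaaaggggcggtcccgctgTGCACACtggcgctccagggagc
Slc30a1, chr1:191906531-191906780, plus strand: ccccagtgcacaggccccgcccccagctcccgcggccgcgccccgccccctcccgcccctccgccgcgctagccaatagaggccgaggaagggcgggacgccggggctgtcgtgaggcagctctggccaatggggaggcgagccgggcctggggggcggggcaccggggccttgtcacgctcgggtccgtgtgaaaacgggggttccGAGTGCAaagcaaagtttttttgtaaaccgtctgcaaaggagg
Slc30a3, chr5:31108245-31108494, minus strand: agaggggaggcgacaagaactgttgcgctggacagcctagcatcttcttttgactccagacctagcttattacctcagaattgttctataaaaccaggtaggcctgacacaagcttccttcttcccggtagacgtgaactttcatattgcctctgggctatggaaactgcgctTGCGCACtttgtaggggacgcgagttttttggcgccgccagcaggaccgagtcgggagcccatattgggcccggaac
Slc39a10, chr1:46853619-46853868, minus strand: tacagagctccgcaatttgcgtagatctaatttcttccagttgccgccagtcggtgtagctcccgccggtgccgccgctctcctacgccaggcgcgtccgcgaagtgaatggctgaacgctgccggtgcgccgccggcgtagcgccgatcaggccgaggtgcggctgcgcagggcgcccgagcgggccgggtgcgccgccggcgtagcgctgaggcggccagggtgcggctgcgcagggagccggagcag

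The match in Mt1 began 23 bases before the listed start site, that in Slc30a1 43 bases before it, on the opposite strand, and that in Slc30a3 77 bases before it. The listed starts were not compared with other evidence for where transcription begins, so a window need not hold the whole promoter. Slc39a10 had no match before either of its listed starts, and the second listed start of Slc30a3 had none. Of the lower genes not shown, Slc30a2 had 2 matches in this window, Mt2 had 3 and Slc39a13 had none. Matches reaching into the bases just after the start site are not counted here. Mt1 had 2 of them, and Slc30a1, Mt2 and Slc39a13 had 1 each. Of the 20 zinc carriers found in the promoter table, 10 had a match before at least 1 listed start, or 50%, against 23.8% of all 27025 genes in the table. Over all 61 members found there, 25 had one, or 41.0%. A match or its absence describes the letters of the window only and does not tell whether Mtf1 acts on the gene.

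Of the phosphate carriers, Slc20a2 was higher in diencephalon and Slc20a1 did not pass. Slc20a2, which encodes PiT2, a sodium-phosphate importer whose human gene is mutated in familial calcification of the basal ganglia, was at 166, 157 and 149 CPM in diencephalon and 118, 116 and 129 CPM in cortex (log2 difference 0.38 ± 0.13, edgeR adjusted p = 0.0277). The libraries did not overlap, but the call was lost without diencephalon replicate 1 or 2 (0.0920 and 0.0791), without cortical replicate 1 or 2 (0.0903 and 0.108), with DESeq2 (0.0604) and with the length trend removed (0.0919), over a range of 0.00902 to 0.108. Slc20a1, which encodes PiT1, was at 89.8, 93.9 and 82.0 against 123, 99.6 and 98.1 CPM (log2 difference -0.28 ± 0.14, adjusted p = 0.161). The ratio of Slc20a2 to Slc20a1 in TPM was 1.48 to 1.63 in diencephalon and 0.839 to 1.18 in cortex.

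Of 8 tested phosphate partners, 2 were higher, 2 were lower and 4 did not pass. Xpr1, the gene for the phosphate exporter of the cell membrane, was at 654 ± 40.4 CPM in diencephalon and 421 ± 42.2 CPM in cortex, 1.55-fold higher (edgeR adjusted p = 0.000491). Slc25a3, the mitochondrial phosphate carrier gene, was lower, at 77.4 ± 14.96 against 127 ± 19.5 CPM (edgeR adjusted p = 0.00151), a call lost on the TPM scale (0.0535 and 0.0579, range 2.91e-05 to 0.0579). Slc17a6 and Slc17a7, vesicular glutamate transporters first described as phosphate carriers, mark subcortical and cortical excitatory neurons. They were 14.5-fold higher and 9.26-fold lower in diencephalon.

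Of the magnesium carriers, Slc41a2 was higher in diencephalon, at 79.5, 92.3 and 97.2 CPM against 35.8, 31.9 and 44.7 CPM. It was 2.40-fold higher with no overlap (log2 difference 1.26 ± 0.18, edgeR adjusted p = 8.68e-06). Slc41a1, a sodium-magnesium exchanger gene and the most abundant of the 3, was at 290.1, 225 and 202 against 244, 252 and 242 CPM and did not pass (log2 difference -0.04 ± 0.14, adjusted p = 0.847). Its cortical libraries were nearly equal and lay within the wider diencephalic range. Slc41a3 was at 11.3 ± 3.44 against 6.01 ± 5.13 TPM and passed only without cortical replicate 3 (0.0499, range 0.0499 to 0.707). The TPM of Slc41a1 was 1.95 to 3.42 times that of Slc41a2 in diencephalon and 5.09 to 7.42 times in cortex.

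Other magnesium genes held calls in both directions. Of 9 tested, 4 were higher, 1 was lower and 4 did not pass, with a median log2 difference of 0.36. The shares among all tested genes were 14.9% higher and 14.8% lower. The lower gene was Cnnm1, at 89.7 ± 9.66 against 124 ± 31.1 CPM (edgeR adjusted p = 0.0406). That call ended in 9 of 15 alternatives, among them leaving out diencephalon replicate 1, 2 or 3 (0.0714, 0.0553 and 0.185) or cortical replicate 3 (0.223), over a range of 0.0151 to 0.429. The magnesium transporter gene Nipa2 was 2.48-fold and Cnnm4 2.14-fold higher. Magt1 was 1.47-fold higher, a call lost without diencephalon replicate 3 (edgeR adjusted p = 0.0749, range 0.00485 to 0.0749). The channel-kinase gene Trpm7 was 1.35-fold higher, a call lost without diencephalon replicate 3 (0.124), without cortical replicate 2 (0.115), with DESeq2 (0.0501) and with the length trend removed (0.0858), over a range of 0.0166 to 0.124.

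**Figure D4:**
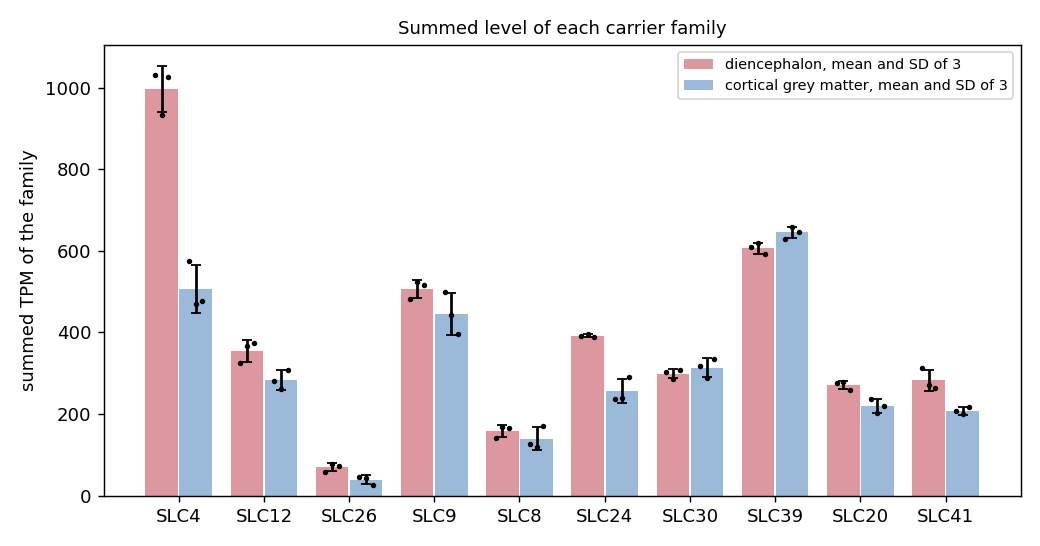
Summed TPM of each family, as bars for the mean and error bars for the SD over 3 libraries per region, with points for single libraries. SLC4 stands at 996 TPM in diencephalon and 507 TPM in cortical grey matter, and SLC24 at 392 and 256 TPM, while SLC30 and SLC39 stand at 0.953 and 0.941 of their cortical level.

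Summed over each family, the regions did not overlap in TPM for SLC4, SLC12, SLC26, SLC24, SLC20, SLC39 and SLC41. All of these except SLC39 were higher in diencephalon. On the log2(TPM + 1) scale the median of all genes was also higher in diencephalon, by 0.22 as given above. The SLC4 sum was 1.97-fold, the SLC26 sum 1.79-fold and the SLC24 sum 1.53-fold higher, while the SLC30 and SLC39 sums were at 0.953 and 0.941 of the cortical level. In CPM, the SLC12 sums overlapped (507 to 572 in diencephalon and 477 to 568 in cortex), as did the SLC20 sums (232 to 256 and 215 to 241). The SLC39 sum was 465 to 486 CPM in diencephalon and 573 to 615 CPM in cortex. These sums follow their most abundant members and were not tested.

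Over the single genes, the order of members by mean TPM put Slc4a4 first in SLC4, Slc12a5 in SLC12, Slc24a2 in SLC24, Slc30a4 in SLC30 and Slc41a1 in SLC41, in both regions. In SLC39, Slc39a12 led in diencephalon, at 217 ± 20.7 TPM against 154 ± 6.46 TPM for Slc39a13. In cortex Slc39a13 and Slc39a12 lay at 207 ± 50.2 and 193 ± 65.5 TPM, which do not differ beyond their spread.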

How the data were processed

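Ribosome-bound mRNA was profiled in 6 libraries, 3 per region. RSEM and the build mm9 are named in the submitters' processing notes. The aligner, the versions and the strand setting were not given in the sources used here, so that reads of overlapping and antisense genes may be shared. The deposited values per gene were expected counts, TPM and FPKM; the deposited FPKM were not used. Members were taken by gene symbol. Some genes of these families are not reported here; the tested ones stay in the counts and family sums. The members and the gene lists were chosen with earlier results of these data known.

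Expected counts were rounded. Of 23955 genes, 10568 passed filterByExpr with a minimum count of 10 and were fitted with TMM scaling and the robust quasi-likelihood model of edgeR 4.0.16 in R 4.3.3, using limma 3.58.1 and a design of region alone, and p-values were adjusted by Benjamini-Hochberg over all of them. Standard errors come from the F statistic. CPM use TMM library sizes. Depth was 1733140 to 2334240 counts. Intervals and floors cover counting error only, since the labels name amplified cDNA and no molecular identifiers. Of the members, 5 had counts that were not whole in at least 1 library.

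Apart from these, every member past the threshold and the most abundant tested member of each family are named, and up to 4 called partners per list; partners and members named beyond that, and the ratios within libraries, were picked with their values in view. The alternatives used DESeq2 1.42.0, limma voom, RLE factors, no filter, a minimum count of 30, a replicate block, log2(TPM + 1) or log2(TPM + 0.1) in limma (mean TPM at least 1), an offset removing the length trend (natural spline, 5 degrees of freedom) and leaving out each library. Same-numbered libraries of the regions were not treated as pairs, since no label says that they share mice. Promoters are those of RefSeq in build GRCm38.p6, and 61 of 78 members matched by symbol.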

Additional observations from a re-analysis of the deposited data

How the results depend on the processing

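At 1733140 to 2334240 counts per library, 26 of 78 members were too weakly counted to test, and 4 of these had no count. The count of called members was 22, and 15 to 24 when a library was left out. It was 22 with RLE factors, 24 without a count filter, 20 at a minimum count of 30, 17 with DESeq2, 21 with limma voom, 18 with the length trend removed, and 21 and 20 on the TPM scale. No called member changed direction in any of the 15 alternatives in which it was tested. Of the 22 calls, 11 were lost in at least 1 alternative, and 9 members that did not pass were called in at least 1. Same-numbered libraries share only a number as far as the labels say. With the replicate number as a block, edgeR called 21 members, the lost call being Slc4a10 (adjusted p = 0.0545). Deviations of same-numbered libraries from their region's mean correlated at 0.06, -0.10 and 0.00, and those of diencephalon replicate 2 and cortical replicate 3 at 0.18, so libraries did not all correlate best with their own number.

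By family, leaving out a library gave 2 to 4 SLC4 calls against 4, 0 to 1 SLC12 calls against 1, 0 to 1 SLC26 calls against 1, 1 to 2 SLC24 calls against 1, 0 to 1 SLC20 calls against 1 and 1 to 2 SLC41 calls against 1. The lowest SLC4 count came without diencephalon replicate 2 or 3, the SLC12 and SLC26 counts of 0 without diencephalon replicate 3, and the highest SLC24 and SLC41 counts without cortical replicate 3. SLC20 had 0 edgeR calls without diencephalon replicate 1 or 2 or cortical replicate 1 or 2, each with 1 gene at an unadjusted p under 0.05. SLC20 also had 0 calls with DESeq2 (1 gene at an unadjusted p under 0.05) and with the length trend removed in edgeR (2 genes). SLC26 had 0 edgeR calls at a minimum count of 30, where 1 gene was tested and had an unadjusted p under 0.05, and 2 calls in both TPM settings, where 6 were tested. SLC9 had 3 calls with log2(TPM + 0.1) against 5. Without diencephalon replicate 3, 1 SLC12 gene and 2 SLC26 genes had an unadjusted p under 0.05. The cause of these changes was not tested beyond the number of genes entering each test.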
